A study of Mus musculus with 12 samples.

Results

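Meiotic chromosome and recombination genes build the machinery with which germ cells pair, synapse and exchange chromosomes. A list of 40 such genes was followed here, chosen by name for their known roles with earlier results of these data in view, and matched by gene symbol, after updating older synonyms, to the transcript clusters of an array. A cluster gathers the probes of 1 locus into a single value. Of the 40 genes 39 had a cluster of their own, and each of these had only 1, out of 30718 genes so named on the array. The remaining gene, Spata22, shares its cluster with an olfactory receptor gene and was not used.

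RNA was taken from fetal mouse gonads, 14.5 days post coitum, freed of the mesonephros, with 1 pair of gonads from 1 embryo per array and 4 arrays in each of 3 groups. The embryos came from a cross of mice carrying Sf1-cre with mice carrying Rosa26-CAG-LSL-Foxl2, in which a CAG promoter drives Foxl2 once Cre has removed a stop cassette. Both control groups, XY control and XX control, were Rosa26+/+; Sf1-Cre+/Tg. The third group, XY FOXL2+, was XY and carried 1 copy of the Foxl2 allele with the same Cre. Sf1-cre acts in somatic cells of the gonad, so the transgene is placed in supporting and steroidogenic cells and not in germ cells, whereas the genes described here are mostly germ cell genes. The strain was mixed 129Sv and C57Bl/6J, and litters are not named in the labels. The comparison asks how germ cell meiotic genes read when the somatic cells around XY germ cells carry FOXL2, a transcription factor of ovarian granulosa cells.

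In the fetal ovary germ cells enter meiosis around midgestation in response to signals from the somatic cells, whereas in the fetal testis they are held back and arrest. Entry brings a program in which sister chromatids are bound by meiotic cohesins, an axis forms along each chromosome, SPO11 cuts the DNA at sites marked by PRDM9, and recombinases use the partner chromosome for repair. The synaptonemal complex zips the partners together, and a subset of the repaired breaks matures into crossovers.

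XY control and XX control read as labelled in the markers given here. Foxl2 averaged 5.35 ± 0.21 in XY control, 7.55 ± 0.81 in XY FOXL2+ and 7.48 ± 0.42 in XX control (log2 signal, SD, n = 4). Foxl2 was thus higher in XY FOXL2+ than in XY control, but it did not tell XY FOXL2+ from XX control. Y-linked signal on the XY FOXL2+ arrays is not given here, so their sex was taken from the labels. The germ cell markers Ddx4, an RNA helicase, and Dazl, an RNA-binding protein, read 13.47 to 15.47 on every array. All 8 Sertoli cell markers, Sox9 and Amh among them, were higher on every XY control array than on every XX control array, and all 8 fetal granulosa cell markers were lower. Of all clusters 14.8% were higher and 10.5% lower on every XY control array in the same way. Whether a low signal lies above background is not known, and Y-linked genes, which XX cells lack, averaged 5.99 (Eif2s3y) to 6.94 (Uba1y) in XX control. Of the 39 genes 10 averaged no more than 6.94 in XY control: Prdm9, Mei1, Mei4, Meiob, Mcmdc2, Msh4, Msh5, Rnf212, Ccnb1ip1 and Majin. Their XY control signal may be background, so their folds from XY control may be lower bounds. The words "at least" before the fold of 1 of these genes mean this.

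In the FOXL2 effect, XY FOXL2+ minus XY control, each of the 6 functional groups held genes that rose, from 7 of 10 in the axis and synaptonemal complex group to 1 of 4 in the telomere group. Of the 39 genes 21 rose (limma, Benjamini-Hochberg adjusted p under 0.05), 17 of them at least 2-fold, none fell and 18 did not pass. Of all 65956 clusters tested 2.46% were called higher and 4.67% lower in this comparison. The median log2 difference was 1.10 over the 39 genes and 0.00 over all clusters, and single genes ranged from -0.11 (Trip13) to 4.46 (M1ap). On 21 of the 39 genes, not quite the same ones since Tex12 and Stag3 overlapped and Brip1 and Sun1 did not, every XY FOXL2+ array read higher than every XY control array, and 5.23% of all clusters did so. No gene read lower on every array, as 6.97% of all clusters did. A fit on only the 2 groups compared called 12 of the 39 higher, and the share of all clusters in that fit is not given here. The main fit uses 1 spread for all 3 groups, so the close XX control arrays enter the SE of this comparison too. In whole gonads fewer cells of a type and less RNA per cell cannot be told apart.

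In the sex difference, XX control minus XY control, 32 of the 39 genes were higher in XX control, 28 of them at least 2-fold, none were lower and 7 did not pass. Of all clusters 7.17% were called higher and 10.2% lower. The median log2 difference was 1.92 against -0.03 over all clusters, and the range was -0.30 (Trip13) to 6.11 (M1ap). Every XX control array read higher than every XY control array on 35 genes (10.5% of all clusters) and lower on 2, Trip13 and Psmc3ip (14.8% of all clusters). All 21 genes that rose in XY FOXL2+ were also higher in XX control. The comparisons share the XY control arrays, so this overlap is not a result of its own. Another 11 genes passed in the sex difference and not in the FOXL2 effect: Sycp2, Syce3, Rad21l, Spo11, Rec114, Brip1, Mcmdc2, Tex15, Tex11, Ccnb1ip1 and Sun1. The 7 that passed in neither were Trip13, Psmc3ip, Mnd1, Mlh3, Rnf212, Mns1 and Ubr2.

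**Figure D1:**
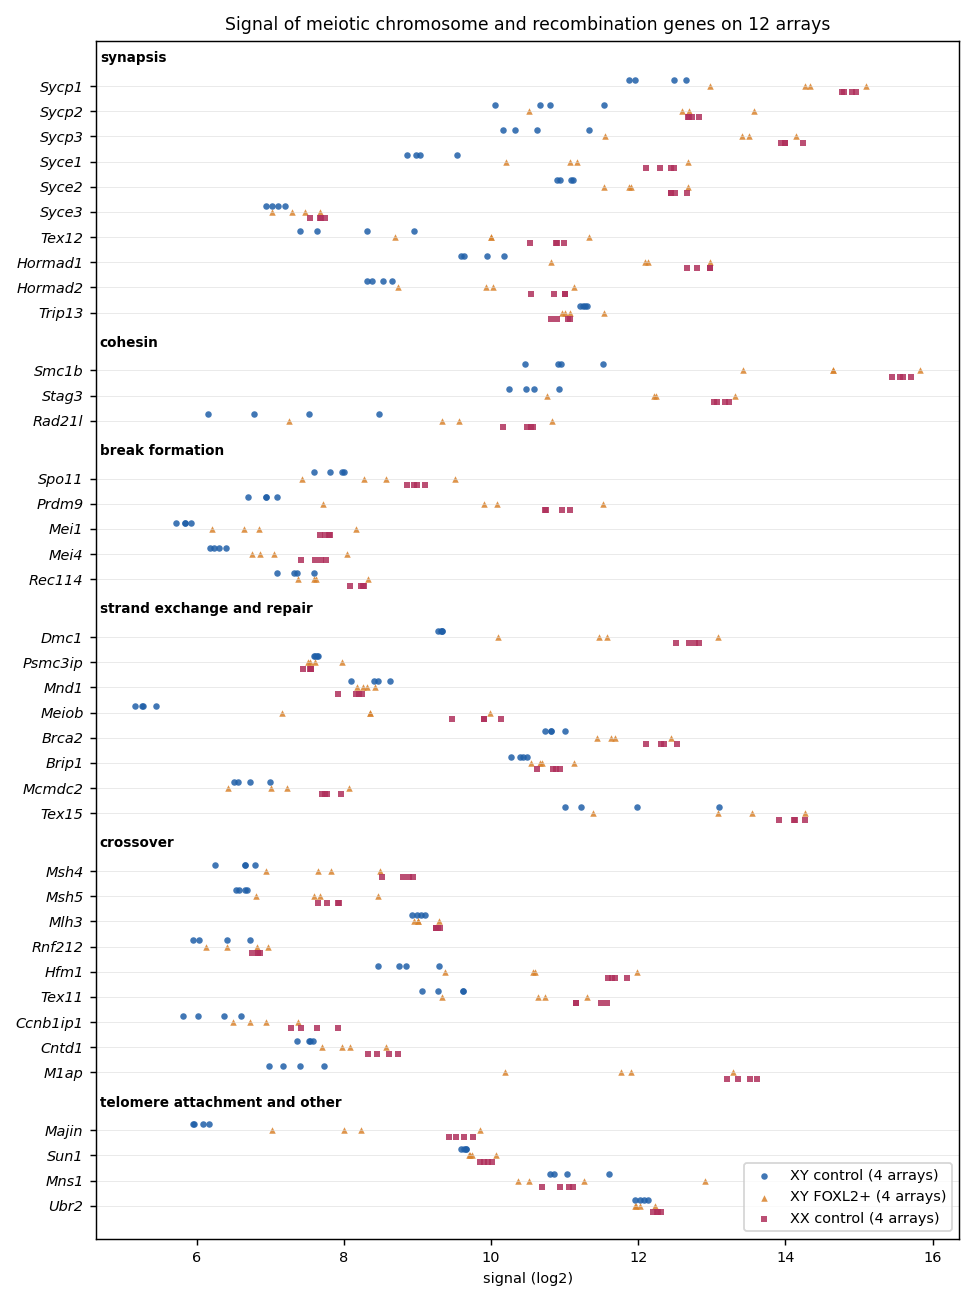
Signal (log2, horizontal axis) of the 39 genes on each of the 12 arrays, with genes grouped by function along the vertical axis and 1 symbol per array. The XX control arrays lie close together and mostly to the right of XY control, while the XY FOXL2+ arrays spread between and beyond them, as in M1ap, where they read 10.19 to 13.29.

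Promoter sequence is shown for 6 of the genes because members that moved together can be compared for shared short motifs. RefSeq promoters (GRCm38.p6, 250 bases before to 50 after each start) were found for 33 of the 39 genes. The motif CNCCTCAG, which the meiotic entry factor STRA8 is known to bind, was present on either strand in 9 of the 33 (27.3%) and in 9.12% of 27025 genes with a promoter. The E-box CACGTG, bound among others by repressors of germ cell genes, was present in 9 (27.3%, against 8.09% of all). TCCCGCC, a motif of E2F factors, was present in 12 (36.4%, against 12.7%), and TGACGTCA, the cyclic AMP response element, in 1, Brca2 (3.03%, against 2.03%). The members' promoters held more CpG than most, with a median of 18 against 8, and among promoters with at least 10 CpG the shares were 30.0% against 11.2% for CNCCTCAG, 30.0% against 12.3% for CACGTG and 40.0% against 25.3% for TCCCGCC. Of the 19 genes with a promoter that rose in XY FOXL2+, 8 held CNCCTCAG, 7 CACGTG and 7 TCCCGCC. Of the 14 that did not pass, 1 held CNCCTCAG (Sun1), 2 CACGTG (Rec114 and Rnf212) and 5 TCCCGCC. These shares are a description, and a match is not shown to be a binding site.

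The 150 bases before the start of 4 genes with CNCCTCAG and 2 genes with a pair of E-boxes follow, 5′ to 3′ on the gene's strand, with matches to these motifs in capitals. M1ap lies at chr6:82946772-82946921 (plus strand), Hormad2 at chr11:4441083-4441232 (minus), Msh5 at chr17:35046623-35046772 (minus), Syce2 at chr8:84872108-84872257 (plus), Sycp3 at chr10:88459437-88459586 (plus) and Hormad1 at chr3:95559527-95559676 (plus).
M1ap: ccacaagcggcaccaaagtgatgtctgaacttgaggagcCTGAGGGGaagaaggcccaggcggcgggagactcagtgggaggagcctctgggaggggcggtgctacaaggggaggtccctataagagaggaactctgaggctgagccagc
Hormad2: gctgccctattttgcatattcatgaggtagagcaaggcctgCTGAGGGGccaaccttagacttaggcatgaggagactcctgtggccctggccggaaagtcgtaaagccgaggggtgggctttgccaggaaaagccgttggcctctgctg
Msh5: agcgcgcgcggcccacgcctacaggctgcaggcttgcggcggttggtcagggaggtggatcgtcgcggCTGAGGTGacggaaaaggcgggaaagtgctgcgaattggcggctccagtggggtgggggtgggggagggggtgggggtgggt
Syce2: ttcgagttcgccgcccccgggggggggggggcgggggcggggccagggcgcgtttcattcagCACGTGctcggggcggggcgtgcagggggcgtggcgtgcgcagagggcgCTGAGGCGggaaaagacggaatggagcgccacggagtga
Sycp3: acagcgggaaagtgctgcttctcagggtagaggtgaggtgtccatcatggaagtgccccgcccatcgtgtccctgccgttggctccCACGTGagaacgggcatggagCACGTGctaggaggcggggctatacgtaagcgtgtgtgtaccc
Hormad1: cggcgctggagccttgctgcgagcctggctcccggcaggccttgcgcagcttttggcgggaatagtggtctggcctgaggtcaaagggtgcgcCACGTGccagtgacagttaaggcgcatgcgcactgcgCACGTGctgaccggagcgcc

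Of 10 genes of the chromosome axis and the synaptonemal complex, 7 rose in XY FOXL2+ (Sycp1, Sycp3, Syce1, Syce2, Tex12, Hormad1 and Hormad2) and 9 were higher in XX control, with median differences of 1.75 and 2.50. Sycp2, Syce3 and Trip13 did not pass in XY FOXL2+. Sycp3, which forms the lateral element along each chromosome axis, read 10.16, 10.32, 10.63 and 11.33 on XY control replicates 1 to 4, 11.55, 14.15, 13.41 and 13.50 in XY FOXL2+, and 13.94, 13.99, 14.24 and 14.00 in XX control. The lowest XY FOXL2+ array lay just above the highest XY control array, and replicate 2 reached the XX control range. The difference from XY control was 2.54 (SE 0.43, adjusted p = 0.00296, 5.83-fold), beside 3.43 (SE 0.43, adjusted p = 0.000113) in the sex difference. A bare value in brackets after a difference is likewise its adjusted p. Sycp1, the transverse filament that bridges the paired axes, rose by 1.92 (0.00384) in XY FOXL2+ and was already at 11.88 to 12.65 on XY control arrays.

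The axis proteins HORMAD1 and HORMAD2 monitor unsynapsed chromosomes. The promoters of their genes, shown above, hold different motifs, a pair of E-boxes in Hormad1 and CNCCTCAG in Hormad2. Hormad1 read 9.63, 9.94, 9.59 and 10.18 in XY control, 10.81, 12.98, 12.09 and 12.13 in XY FOXL2+, and 12.66, 12.98, 12.97 and 12.80 in XX control. Every XY FOXL2+ array was above every XY control array, by a mean of 2.17 (SE 0.33, adjusted p = 0.00153, 4.50-fold). Hormad2 rose by 1.49 (0.0222), and its call ended with only the 2 groups compared or without XY control replicate 1 or 3 (adjusted p up to 0.079).

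The central element, which holds the zipped axes together, is made of SYCE1, SYCE2, SYCE3 and TEX12 among others. Syce1 rose by 2.18 (0.00345), Syce2 by 0.98 (0.00589) and Tex12 by 1.93 (0.0203), and in the sex difference they were higher by 3.23, 1.50 and 2.75. The call of Tex12 was lost in the fit of the 2 groups alone and without XY control replicate 1 or 2 (up to 0.0769). Syce3 spanned a narrow range, from 6.95 to 7.20 in XY control, 7.03 to 7.68 in XY FOXL2+ and 7.54 to 7.75 in XX control, with a difference of 0.30 (0.188) in XY FOXL2+ and 0.59 (0.00418) in XX control. Sycp2, the partner of SYCP3 in the axis, differed by 1.58 from XY control (0.0802), with XY FOXL2+ arrays at 10.52, 13.57, 12.59 and 12.69 against 10.05 to 11.53. Replicate 1 lay inside the XY control range and the other 3 above it. Trip13, an ATPase that strips HORMADs from synapsed axes and also serves the spindle checkpoint of dividing cells, differed by -0.11 (95% confidence interval -0.37 to 0.15, adjusted p = 0.683).

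Meiotic cohesins, rings that hold sister chromatids together, were represented by 3 genes, of which Smc1b and Stag3 rose in XY FOXL2+ and all 3 were higher in XX control. Smc1b, the meiotic SMC1 subunit, read 10.91, 11.52, 10.46 and 10.95 in XY control, 13.42, 15.83, 14.65 and 14.64 in XY FOXL2+, and 15.45, 15.60, 15.70 and 15.55 in XX control. The groups did not overlap between XY FOXL2+ and XY control, and the difference was 3.68 (SE 0.38, adjusted p = 5.92e-05, 12.8-fold). Stag3, the meiotic STAG subunit, read 10.76, 13.32, 12.24 and 12.22 in XY FOXL2+ against 10.24 to 10.93 in XY control, so that replicate 1 overlapped. It rose by 1.58 (SE 0.38, 0.0242), a call that ended with only the 2 groups compared or without XY control replicate 1, 2 or 3 (up to 0.0904). Rad21l, a meiotic kleisin that closes the ring, read 6.78, 6.16, 7.53 and 8.48 in XY control, the widest spread of any of the 39 genes there (SD 1.00), and 7.25, 10.83, 9.34 and 9.56 in XY FOXL2+. Its difference of 2.01 did not pass (0.0747), whereas that of XX control did (3.20, 0.00271).

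Each of these cohesin genes has a counterpart used in all dividing cells, which gives a comparison within the same array. The counterparts are read from somatic and germ cells together, so the ratio can also move with the share of germ cells. That share was not tested. Smc1a differed by 0.01 between XY FOXL2+ and XY control (adjusted p = 0.988) and Stag2 by 0.03 (0.921), and both differences turned slightly negative with array weights or without XY FOXL2+ replicate 1. Rad21 fell by 0.45 in XY FOXL2+ (0.0332) and by 1.01 in XX control (6.59e-05), and the first of these calls ended with only the 2 groups compared, with the replicate block, and without any of 8 single arrays (up to 0.0981). The log2 difference Smc1b minus Smc1a within an array was 3.67 higher in XY FOXL2+ than in XY control and 4.82 higher in XX control, the smallest p that 4 against 4 arrays allow in both (exact permutation p = 0.0286, two-sided, adjusted p = 0.0429 over 6 comparisons of 3 pairs). Stag3 minus Stag2 was 1.55 higher in XY FOXL2+ (exact permutation p = 0.114, adjusted p = 0.114) and 2.76 higher in XX control (0.0286, adjusted 0.0429). Rad21l minus Rad21 was 2.46 higher in XY FOXL2+ (exact permutation p = 0.0857, adjusted p = 0.103) and 4.21 higher in XX control (0.0286, adjusted 0.0429). Unequal change of the paired genes was thus found in 4 of the 6 comparisons, and not for Stag3 or Rad21l in XY FOXL2+.

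**Figure D2:**
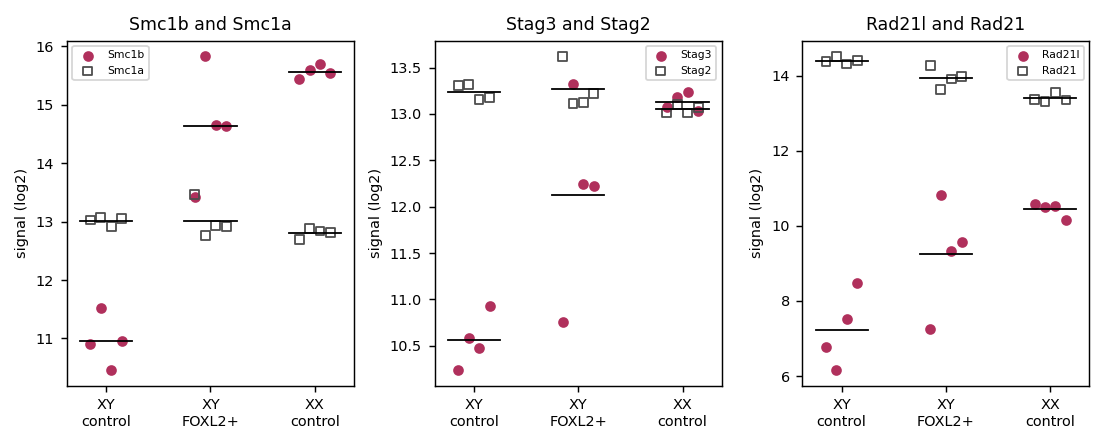
Signal (log2, vertical axis) of 3 meiotic cohesin genes (filled circles) and their general counterparts (open squares) on the 4 arrays of each group, with group means as lines. Smc1b read 10.46 to 11.52 in XY control and 13.42 to 15.83 in XY FOXL2+, while Smc1a had means of 13.02 in both XY groups and 12.81 in XX control.

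Of 5 genes for making breaks 3 rose in XY FOXL2+ and all 5 were higher in XX control. Prdm9, the histone methyltransferase that marks where breaks fall, read 6.94, 6.70, 6.94 and 7.10 in XY control, 7.72, 11.52, 10.08 and 9.90 in XY FOXL2+, and 10.97, 10.75, 11.08 and 10.73 in XX control. No XY FOXL2+ array overlapped XY control, and their own values spanned more than those of any other gene in the list (SD 1.57). The difference was 2.88 (SE 0.55, adjusted p = 0.0062, at least 7.38-fold). Mei1 and Mei4, needed for SPO11 to cut, rose by 1.13 (0.0366) and 0.90 (0.0253) from XY control levels of 5.72 to 5.93 and 6.18 to 6.40. The call of Mei1 ended under 10 of 18 alternatives (up to 0.118) and that of Mei4 under 4, namely only the 2 groups compared and XY control replicates 2, 3 or 4 left out (up to 0.0851). Rec114, a partner of MEI4, differed by 0.38 (0.236).

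Spo11 itself, the enzyme that cuts, read 7.43, 9.51, 8.57 and 8.27 in XY FOXL2+ against 7.60, 7.98, 7.82 and 8.01 in XY control and 8.86, 8.99, 9.11 and 8.96 in XX control. Replicate 1 was below all XY control arrays and the other 3 above them. The difference of 0.59 did not pass (95% confidence interval -0.08 to 1.26, adjusted p = 0.321), while the sex difference of 1.13 did (0.0229). The latter lost its call without XY control replicate 1 or 3 or XX control replicate 2 or 3 (up to 0.0654).

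Among 8 genes of strand exchange and repair 3 rose in XY FOXL2+ and 6 were higher in XX control. Dmc1, the meiotic recombinase, read 9.28, 9.32, 9.33 and 9.33 in XY control, 10.10, 13.09, 11.58 and 11.47 in XY FOXL2+, and 12.52, 12.77, 12.82 and 12.69 in XX control. All XY FOXL2+ arrays were above all XY control arrays, replicate 2 was above all XX control arrays, and the mean rise was 2.24 (SE 0.43, adjusted p = 0.00631, 4.74-fold). Meiob, which binds single-stranded DNA together with SPATA22, read 5.17, 5.45, 5.26 and 5.27 in XY control, 7.16, 9.99, 8.36 and 8.36 in XY FOXL2+, and 10.14, 9.90, 9.47 and 9.90 in XX control. It rose by 3.18 (SE 0.42, 0.000439, at least 9.06-fold), with no overlap between the XY groups. Brca2, which loads recombinases in germ and somatic cells alike, rose by 0.96 (SE 0.18, 0.00583), from 10.73 to 11.00 in XY control to 11.44 to 12.45 in XY FOXL2+.

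The other 5 repair genes did not pass in XY FOXL2+. Psmc3ip and Mnd1 encode the paired partners HOP2 and MND1 that help DMC1 invade DNA, and they differed by 0.04 (95% confidence interval -0.17 to 0.25) and -0.10 (-0.35 to 0.15) in XY FOXL2+. Their sex differences were -0.09 (adjusted p = 0.621) and -0.26 (0.156). Brip1, a helicase partner of BRCA1, and Mcmdc2, an MCM-like protein of meiotic repair, differed by 0.36 (0.118) and 0.49 (0.32) in XY FOXL2+, and both passed in the sex difference (0.42, 0.0326 and 1.10, 0.00861). Brip1 lost that call without any of 6 single arrays (up to 0.0999). Tex15, a large germ cell protein needed for break repair in spermatocytes, read 11.22, 11.01, 11.98 and 13.10 in XY control and 11.39, 14.27, 13.09 and 13.55 in XY FOXL2+. Replicate 4 of XY control was level with replicate 3 of XY FOXL2+, the groups overlapped, and the difference of 1.24 did not pass (0.215).

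Of 9 crossover genes 5 rose in XY FOXL2+ and 7 were higher in XX control, with medians of 1.03 and 1.36. M1ap, needed for crossing over in spermatocytes, had the largest measured difference of the 39 genes in both comparisons, next to 10 genes whose folds from XY control may be lower bounds. It read 6.98, 7.18, 7.41 and 7.73 in XY control, 10.19, 13.29, 11.90 and 11.77 in XY FOXL2+, and 13.62, 13.36, 13.52 and 13.21 in XX control. The gap between the highest XY control array and the lowest XY FOXL2+ array was wide, and the rise was 4.46 (SE 0.46, adjusted p = 5.97e-05, 22.1-fold) beside 6.11 (2.52e-06) in the sex difference. The XY control reading of 6.98 lies within the 6.66 to 7.12 that Uba1y read in XX control, so these differences may be lower bounds too. Hfm1, a helicase of the crossover pathway, rose by 1.80 (0.0138), a call lost in the fit of the 2 groups alone (0.062).

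MSH4 and MSH5 form a clamp that holds recombining duplexes. Msh4 read 6.66, 6.25, 6.66 and 6.80 in XY control, 6.94, 8.49, 7.65 and 7.83 in XY FOXL2+, and 8.52, 8.89, 8.94 and 8.81 in XX control, so that the 3 groups did not overlap. Its rise was 1.14 (SE 0.25, adjusted p = 0.0143) and ended with only the 2 groups compared (0.0567). Msh5 read 6.53 to 6.68 in XY control, 6.81, 8.46, 7.68 and 7.60 in XY FOXL2+ and 7.65 to 7.93 in XX control. Its rise was 1.03 (0.0224), lost with only the 2 groups compared or without XY control replicate 1, 3 or 4 (up to 0.0813).

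The ring-finger proteins RNF212 and CCNB1IP1, also called HEI10, and the cyclin-like CNTD1 choose which breaks become crossovers. Cntd1 rose by 0.58 (0.0401), a call that ended under 9 of 18 alternatives (up to 0.107). Ccnb1ip1 differed by 0.68 in XY FOXL2+ (0.0758) and by 1.36 in XX control (0.000521), and Rnf212 by 0.30 (0.423) and 0.54 (0.0728). Tex11, the 1 X-linked gene among the 39 and a binding partner of the crossover machinery, read 9.33, 11.30, 10.64 and 10.73 in XY FOXL2+ against 9.06 to 9.62 in XY control, with a difference of 1.10 (0.0559). Replicate 1 lay within the XY control range. Mlh3, which helps to resolve crossovers, differed by 0.05 (0.833).

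In the last group, of telomere attachment and other roles, Majin was the 1 of 4 genes to rise in XY FOXL2+. MAJIN anchors telomeres to the nuclear membrane, and its gene read 6.17, 5.96, 6.09 and 5.95 in XY control, 7.02, 9.85, 8.23 and 8.01 in XY FOXL2+, and 9.43, 9.52, 9.76 and 9.64 in XX control. The difference was 2.23 (SE 0.41, adjusted p = 0.00531, at least 4.70-fold), without overlap. Sun1, a nuclear envelope protein of most cells that links telomeres to the cytoskeleton, differed by 0.17 (0.361) and by 0.30 in the sex difference (0.0438, a call that ended under 11 of 18 alternatives). Ubr2, a ubiquitin ligase, had a 95% confidence interval of -0.18 to 0.17 in XY FOXL2+. Mns1, a filament-like protein of meiotic nuclei and cilia, read 12.91, 11.26, 10.37 and 10.52 in XY FOXL2+, 10.80 to 11.60 in XY control and 10.69 to 11.12 in XX control. Replicate 1 was the highest of all 12 arrays for this gene, and the difference was 0.19 (95% confidence interval -0.74 to 1.12).

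**Figure D3:**
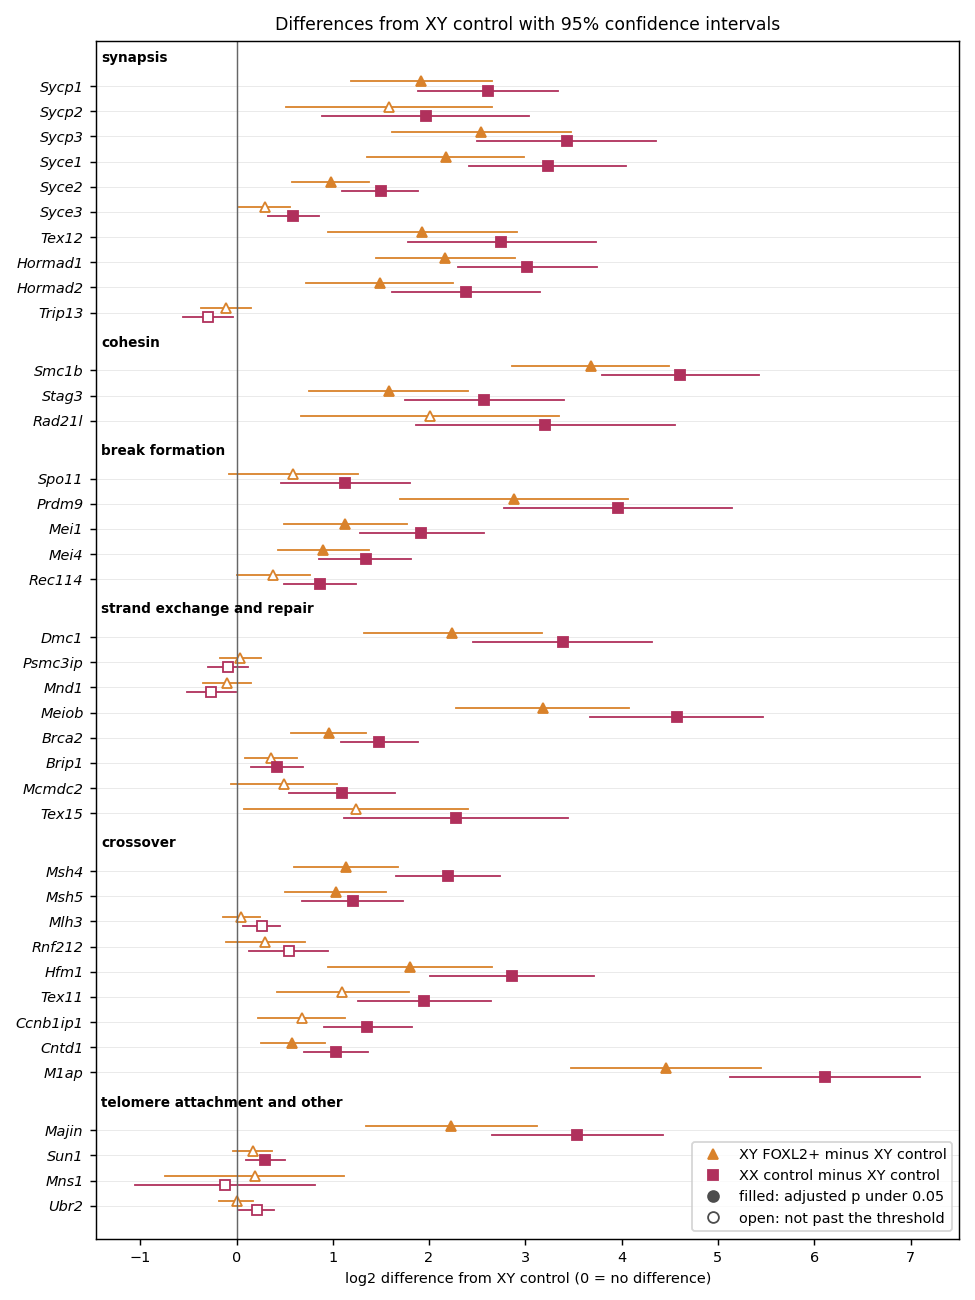
Log2 difference from XY control (horizontal axis) of XY FOXL2+ (triangles) and XX control (squares) for each of the 39 genes, with 95% confidence intervals not adjusted for multiple tests. Filled symbols passed the adjusted threshold, 21 genes in XY FOXL2+ and 32 in XX control, and M1ap lies farthest to the right in both, at 4.46 and 6.11.

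Against XX control, the genes of XY FOXL2+ gonads read lower on average, but hardly any difference passed. The median of XY FOXL2+ minus XX control was -0.68 over the 39 genes and 0.03 over all clusters, with a range of -1.64 (M1ap) to 0.31 (Mns1). Only Msh4 passed, at -1.06 (SE 0.25, adjusted p = 0.0264), and 2.64% of all clusters were called lower and 2.87% higher. It was also the 1 gene whose XY FOXL2+ arrays all read below XX control (4.82% of all clusters), and none read above XX control on every array (6.63%). Both counts of 1 gene are near or below the shares of all clusters and are not a result about the list. The call of Msh4 ended with only the 2 groups compared and without XY FOXL2+ replicate 3 or 4 or XX control replicate 2, 3 or 4 (adjusted p up to 0.0805). Without XY FOXL2+ replicate 2, 25 of the 39 genes were lower than in XX control, and with array weights 15 were. The shares of all clusters called lower in those fits are not given here, so these counts are no result about the list. Confidence intervals were wide: -1.42 to 0.04 for Sycp1, -2.07 to -0.22 for Dmc1, -1.75 to -0.12 for Smc1b and -2.63 to -0.65 for M1ap, before adjustment.

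The 4 XY FOXL2+ arrays differed among themselves more in these genes than in most of the array. The median SD of the 39 genes was 0.84 in XY FOXL2+, 0.21 in XY control and 0.13 in XX control, beside 0.16, 0.13 and 0.12 over all clusters. Replicate 2 was the highest of its group on 35 of 39 genes and replicate 1 the lowest on 32. Replicate 2 exceeded every XX control array on 26 genes, and the median of its values minus the XX control mean was 0.19. For replicates 1, 3 and 4 these medians were -1.55, -0.63 and -0.63, with 34 genes on each array below every XX control array. Over all clusters the same medians were 0.01 to 0.05. The counts of genes on single arrays were not taken over all clusters, so they describe the arrays and are no result about the list.

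Germ cell and somatic markers varied across the same arrays. The mean of Ddx4 and Dazl was 13.66, 15.07, 14.51 and 14.66 on XY FOXL2+ replicates 1 to 4, 14.09 to 14.61 in XY control and 14.83 to 15.20 in XX control. Replicate 1 was thus below all other arrays. Over all 11 germ cell markers the mean signal was 9.98 to 10.56 in XY FOXL2+, 10.67 to 10.96 in XY control and 10.15 to 10.76 in XX control, and 3 of the 11 (Dnd1, Sall4 and Prdm1, named after their values were seen) fell in XY FOXL2+ while none rose. The 8 Sertoli cell markers averaged 8.31, 7.29, 9.37 and 9.21 on XY FOXL2+ replicates 1 to 4 against 10.89 to 11.20 in XY control, and the 8 fetal granulosa cell markers 9.04, 9.82, 7.97 and 7.91 against 7.34 to 7.38. The 4 fetal Leydig cell markers, of the androgen-producing cells, all fell, by a median of 6.64, and averaged 8.66, 7.91, 11.09 and 11.17 against 15.78 to 16.17 in XY control and 7.83 to 8.07 in XX control. Of 6 macrophage markers 3 rose (mean 7.21 to 7.33 against 6.84 to 7.07 in XY control). Of 6 endothelial markers 2 rose (10.61 to 10.88 against 10.31 to 10.63), and of 6 mesonephric tubule markers 2 fell (6.09 to 6.21 against 6.18 to 6.45). Beside these marker counts, 2.46% of all clusters rose and 4.67% fell in the FOXL2 effect. The array highest in meiotic genes was thus also lowest in Sertoli and Leydig and highest in granulosa markers, but replicate 1, lowest in meiotic genes, was not the array nearest to XY control in any of the 3. The part of these markers in the results was not tested.

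The same counts were taken against the germ cell level of each array, as read from only 2 markers, Ddx4 and Dazl. With their mean taken off each array, 22 of the 39 genes were higher on every XY FOXL2+ array than on every XY control array (0.731% of all clusters) and none were lower (2.19%), with a median difference of 1.01 against -0.09 over all clusters. In the sex difference 26 were higher (1.28% of all clusters) and 7 lower (75.2%), with a median of 1.26 against -0.70 over all clusters. The marker mean is higher in XX control, 15.04 against 14.38 in XY control, so taking it off lowers every cluster there alike, and the 7 lower genes are not a result about the list. Taking it off also adds its spread between arrays (SD 0.59 in XY FOXL2+) to every cluster. The shares of all clusters higher on every array fell, from 5.23% to 0.731% in XY FOXL2+ and from 10.5% to 1.28% in XX control. The adjustment itself thus lowers these shares, and they are no measure for the 22 and 26 genes. With the marker mean as a covariate in the fit, 25 genes were called higher in XY FOXL2+ (3.04% of all clusters) and 24 in XX control (4.85%), while none were called lower in either (5.46% and 7.96% of all clusters), a setting added after the data were seen. The 11 germ cell markers as a list differed otherwise than these 2, with a median of -0.68 in XY FOXL2+, so the values hold for this choice of markers only. Dazl itself was higher in XX control than in XY control (0.91, adjusted p = 0.02), so the adjustment takes off part of any change that Dazl shares with these genes.

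**Figure D4:**
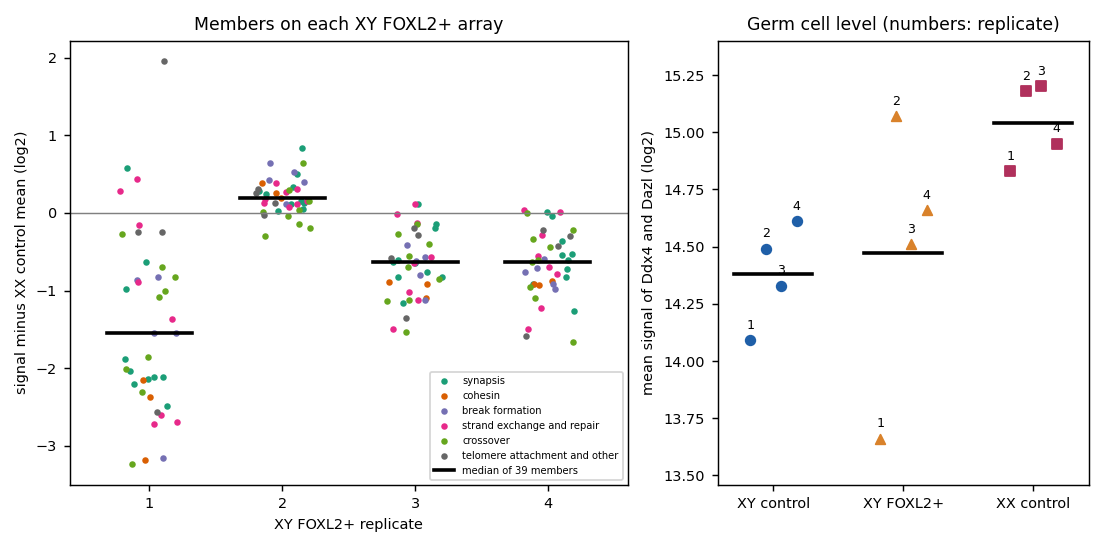
Left, signal of each of the 39 genes minus its XX control mean (log2, vertical axis) on the 4 XY FOXL2+ arrays, coloured by function, with medians as bars: -1.55, 0.19, -0.63 and -0.63. Right, mean signal of Ddx4 and Dazl (log2) on all 12 arrays, numbered by replicate, with group means as lines. XY FOXL2+ replicate 1 is lowest at 13.66.

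XY control arrays also differed in part of the list. Replicate 4 was the highest of its group on 24 of 39 genes, and the spread was widest in Rad21l (SD 1.00), Tex15 (0.94), Tex12 (0.70) and Sycp2 (0.61), against 0.02 in Dmc1 and Psmc3ip. How often replicate 4 was highest over all clusters was not counted. The 7 male germ cell markers averaged 6.83, 6.77, 7.26 and 7.82 on XY control replicates 1 to 4, so replicate 4 was highest in their mean. That order came from 4 of the 7, Nanos2, Dnmt3l, Piwil4 and Tdrd9 (named, like the next 3, after their values were seen), whereas Lefty2 and Nodal were lowest on replicate 4 and Lefty1 read 5.51 there against 5.47 to 6.09 on the others. None of the 4 wide-spread genes but Tex12 passed in the FOXL2 effect.

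Of 9 genes of meiotic entry 6 rose in XY FOXL2+ (Stra8, Meioc, Bhmg1, Ythdc2, Rbm46 and Rarb, the last 4 named after their values were seen), 2 fell (Cyp26b1 and Nanos2) and Dazl did not pass, with a median of 0.99. The shares over all clusters were 2.46% higher and 4.67% lower. Stra8, the factor that starts the meiotic program, read 11.27, 13.34, 12.06 and 11.91 on XY FOXL2+ replicates 1 to 4 against 6.23 to 6.40 in XY control and 12.18 to 12.84 in XX control, and Meioc, which sustains meiotic prophase, read 10.47, 12.85, 10.90 and 10.90 against 6.06 to 6.62 and 12.44 to 12.88. The XY control means of Stra8 and Meioc, 6.31 and 6.28, may be background. On replicate 1 both were above every XY control array, as were 24 of the 39 meiotic chromosome genes, while Spo11 and Mcmdc2 were below every XY control array there. How many of all clusters lay so on that array was not counted. Dazl, at 13.85 on replicate 1, was also below the XY control range of 14.15 to 14.64. Cyp26b1, which degrades the meiosis-promoting retinoic acid, fell by 2.21 in XY FOXL2+ (8.08e-05), and Nanos2, a male germ cell factor that blocks meiosis, fell by 1.35 (0.00997). On XY FOXL2+ replicates 1 to 4 Cyp26b1 read 7.71, 7.06, 8.32 and 8.36, and Nanos2 read 5.51, 5.61, 6.43 and 6.82. Cyp26b1 was thus lowest on replicate 2 and Nanos2 on replicate 1.

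Further genes of meiotic chromosomes outside the 39 were followed as a list. Of 19 measured, 5 rose in XY FOXL2+ (Terb1, Terb2, Rec8, Iho1 and Shoc1), none fell and 14 did not pass, with a median of 0.51. In XX control 12 were higher and 3 lower, with a median of 1.06. The shares of all clusters called higher and lower were 2.46% and 4.67% in XY FOXL2+, and 7.17% and 10.2% in XX control. The telomere adaptors Terb1 and Terb2, partners of MAJIN, rose by 2.68 (0.000925) and 1.63 (0.00224), and Iho1, which joins break formation to the HORMAD axis, rose by 1.82 (0.00984). Terb2 averaged 6.53 in XY control, which may be background, so its rise may be a lower bound. Shoc1, a crossover protein, rose by 2.17 (0.0376), a call that ended under 11 of 18 alternatives (up to 0.117). Rec8, the other meiotic kleisin beside RAD21L, read 9.27, 10.17, 8.60 and 8.17 in XY FOXL2+, 6.96 to 7.12 in XY control and 10.86 to 11.02 in XX control. It lay apart from both controls on every array, with differences of 2.02 from XY control (0.00147) and -1.91 from XX control (0.00337), and replicate 1 was its second highest XY FOXL2+ value.

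Of 21 cohesin, checkpoint and repair genes that somatic cells also use, 4 rose in XY FOXL2+, Rad21 fell and 16 did not pass, with a median of 0.09. The 4, all under 2-fold and named after their values were seen, were Mdc1, a mediator of the DNA damage response (0.97, 0.00983), the damage kinases Atr (0.93, 0.0243) and Atm (0.73, 0.0122), and the nuclease Mre11a (0.72, 0.00796). In XX control 7 of the 21 were higher and 2 lower, with a median of 0.29. Of all clusters 2.46% were called higher and 4.67% lower in XY FOXL2+, and 7.17% and 10.2% in XX control. The 2 lower genes are near that share and are not a result about this list. Mitotic cell cycle markers differed by a median of 0.01 in XY FOXL2+, with 1 of 7 lower and none higher, and 5 of 7 were lower in XX control than in XY control.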

How the data were processed

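RNA (100 ng per sample, amplified and biotin-labelled, per the labels' protocols) was read on the Affymetrix Mouse Transcriptome Array 1.0. The deposited values were taken as log2 signal from their range. The labels and the deposited file do not state the log base or how the authors summarized and normalized the arrays. Another base would rescale every log2 difference and fold but no test. Of 72688 entries 6732 control probe sets were left out and 65956 clusters were tested without a filter on low signal. Gene symbols are those of the platform annotation after an update through RefSeq: 31280 clusters have 1 symbol, 1470 several and 33206 are unlisted. Symbols with several clusters take the one with the highest mean. Precision rests on 4 arrays per group.

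Groups were compared in 1 fit over 12 arrays (limma 3.58.1, R 4.3.3, lmFit and eBayes with intensity trend, 9 residual degrees of freedom), two-sided, adjusted over all clusters by Benjamini-Hochberg at 0.05. All groups share 1 spread per cluster, so each SE also draws on the arrays of the group not compared. Paralog ratios used exact permutation of 4 against 4 arrays (70 assignments, SciPy 1.17.1). The fit was tested on simulated data in which all 12 arrays had the spread of XY control. The wider spread of XY FOXL2+ in these genes was thus not covered. Genes and lists were chosen with earlier results of these data known. Named are all measured members, the paralogs, Stra8, Meioc, Cyp26b1, Nanos2, Ddx4, Dazl, and the 5 largest called changes per comparison among the other meiotic chromosome genes and those shared with somatic cells. The 18 alternatives were quantile normalization, the 2 groups alone, array weights, no trend, a replicate block, brighter clusters and each array left out. A 2-fold threshold was counted apart from these 18.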

Additional observations from a re-analysis of the deposited data

Results flagged for a closer look

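Each of the 117 groups of 4 arrays (39 genes in 3 groups) was searched for 1 array standing apart from the other 3, and 3 groups held one. Chance marks about 1 in 20 groups. Dmc1 read 9.28 on XY control replicate 1 against 9.32 to 9.33 on the others, a gap that is small in absolute terms. Mlh3 read 9.29 on XY FOXL2+ replicate 2 against 8.95 to 9.01, and Sun1 read 10.07 on the same array against 9.70 to 9.74. Neither gene passed in the FOXL2 effect.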

How the results depend on the processing

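Of the 21 genes called higher in XY FOXL2+, 12 kept the call under all 18 alternatives: Sycp1, Sycp3, Syce1, Syce2, Hormad1, Smc1b, Prdm9, Dmc1, Meiob, Brca2, M1ap and Majin. Of the 32 called in the sex difference 29 did, all but Spo11, Brip1 and Sun1. The 18 alternatives leave out the 2-fold threshold. Among the 12 genes Syce2 (1.97-fold) and Brca2 (1.95-fold) miss it, and among the 29 Syce3 (1.51-fold) and Rec114 (1.82-fold). The count of 21 became 12 with only the 2 groups compared, 23 with quantile normalization, 24 with array weights and 15 to 28 when 1 array was left out, lowest without XY control replicate 1 or 3 and highest without XY FOXL2+ replicate 1. The count of 32 ranged from 29 to 34 when 1 array was left out, and the count of lower genes from 0 to 1, with 1 also with array weights and with only the 2 groups compared. The count of 1 gene lower than XX control became 15 with array weights, 2 with clusters above the median signal, 0 with only the 2 groups compared, 0 with the germ cell level as covariate, and 0 to 25 when 1 array was left out. Shares of all clusters under the alternatives are not given, here and below. The counts show only how far the calls depend on the processing.

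Same-numbered arrays of different groups correlated from -0.091 to 0.179 in their deviations from the group means, with 2 of 12 pairs above 0.1. Differently numbered ones correlated from -0.129 to 0.202, with 2 of 36 pairs above 0.1. Litters are not named in the labels, so whether same-numbered arrays share a litter or batch cannot be told. The fit with a replicate block called 24 genes higher in XY FOXL2+, 32 in XX control and 2 lower than in XX control. With the replicate block the paralog differences of 3.67 and 4.82 (Smc1b), 2.76 (Stag3) and 4.21 (Rad21l) were the same but the exact permutation p was 0.125, the smallest that 4 pairs allow. With 1 array left out these ranged from 3.19 to 4.22 and 4.69 to 4.99 (Smc1b), 2.63 to 2.91 (Stag3) and 3.81 to 4.62 (Rad21l), with an exact permutation p of 0.0571, the smallest that 3 against 4 arrays allow.

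Changes of sign occurred only among differences past the threshold in neither setting. In the FOXL2 effect Psmc3ip became -0.04, Mns1 -0.24, Smc1a -0.04 and Stag2 -0.02 with array weights, and Ubr2 0.04 with quantile normalization. With 1 array left out the range was -0.06 to 0.08 for Psmc3ip, -0.03 to 0.08 for Mlh3, -0.36 to 0.49 for Mns1, -0.07 to 0.02 for Ubr2, -0.34 to 0.09 for Ddx4, -0.14 to 0.09 for Smc1a and -0.09 to 0.08 for Stag2. In the sex difference Mns1 ranged from -0.21 to 0.06 with 1 array left out, and with the germ cell covariate Psmc3ip became 0.08, Mns1 0.52, Ddx4 -0.23, Smc1a 0.03 and Stag2 0.02. Against XX control Mns1 became -0.12 with array weights, and with 1 array left out the range was -0.80 to 0.22 for Sycp2, -0.19 to 0.01 for Brip1, -0.45 to 0.10 for Msh5 and -0.24 to 0.61 for Mns1. The germ cell covariate turned that difference to 0.10 for Sycp1 and Sycp3, 0.78 for Sycp2, 0.13 for Tex12, 0.08 for Rad21l and Brip1, 0.16 for Spo11, 0.12 for Prdm9 and Rnf212, -0.01 for Psmc3ip, 0.09 for Tex15, 0.31 for Msh5, -0.23 for Mns1, 0.27 for Shoc1, 0.22 for Stra8 and 0.02 for Dazl. The cause of these changes was not tested. Taking the mean of all clusters of a gene was not run, since each gene has 1.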
